A study of Mus musculus with 10 samples.

Results

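The 35 genes described here encode enzymes that make, interconvert or break down nucleotides in the mouse. They were taken by symbol from the 16697 gene entries of the deposited RNA-seq table, and all 35 symbols were found. By role they comprise 11 genes of purine synthesis, 1 of purine interconversion, 7 of pyrimidine synthesis, 9 that supply the deoxynucleotides (dNTPs) for DNA, and 7 of nucleobase and uridine breakdown in liver. The table covers 4 libraries of normal liver (NL), 3 of tumours raised with c-MYC and the empty pT3 vector (c-MYC), and 3 of tumours raised with c-MYC plus FOXO1AAA (c-MYC/FOXO1AAA). FOXO1AAA is a form of the transcription factor FOXO1 that AKT cannot inactivate, and it was expressed from the EF1α promoter with a MYC tag.

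Tumours arose after hydrodynamic tail vein injection, which brings plasmid DNA into hepatocytes, and the Sleeping Beauty transposase inserted the transgenes. All mice were wild type in their own genes. The labels name C57BL/6 as the strain, whereas the extraction protocol names FVB for the normal livers. The paper lists FVB/N both for the mice given either tumour mix and for the normal livers. Whether the c-MYC mix also held MCL1 is described in different ways by the sources. Mice of both sexes were used in the study, and no age is given for these animals. Tumours are bulk tissue taken at high tumour burden, so each library can hold other cells than tumour cells, and a lower level can reflect fewer cells of a type or less RNA per cell, which cannot be told apart here. The labels do not say that libraries of a group came from different mice, so the tests measure the spread between these libraries.

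Levels are FPKM, in which a gene's fragment count is divided by gene length and library size, read back from the deposited log2 values. The libraries held 13123641 to 20547630 reads in genes. Changes are log2 fold changes of group means with their standard error (SE), tested with limma against a 1.5-fold change and adjusted over 14017 genes that reached 1 FPKM in at least 3 libraries. A gene is said to rise or fall where the adjusted p was under 0.05. Of the 35 enzymes, 34 passed that filter. Nme2 did not, Gmpr passed it only through the c-MYC/FOXO1AAA libraries, and Gda only through NL, with 1 further library above 1 FPKM. A gene that passes through the group where it is high is bound to differ, so values with no filter are given for both. With no filter all 35 enzymes were tested, and the counts called in each comparison were those given below. The mouse Foxo1 entry was at 70.1 to 95.6 FPKM in the c-MYC/FOXO1AAA libraries, against 5.17 to 7.87 in the other 7, which matches their labels. The mouse Myc entry was at 0.561 to 1.11 FPKM in the tumours and 4.17 to 22.2 in NL, and whether it counts the injected c-MYC is not given in the sources used here. As a check on the tissue, the summed level of 10 hepatocyte markers was 77900 to 86400 FPKM in NL, 3530 to 5490 in c-MYC and 854 to 1540 in c-MYC/FOXO1AAA tumours.

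Cells build purines on a ribose phosphate supplied by PRPP synthetases, passing through inosine monophosphate (IMP), which then branches to AMP and GMP. Pyrimidines are built as a free ring first, which ends as UMP and is aminated to CTP. Ribonucleotide reductase turns ribonucleotides into the dNTPs that DNA replication needs. The liver is a main site of breakdown, where purines end as uric acid and, in the mouse, allantoin, and pyrimidines are reduced and opened to beta-amino acids. MYC family proteins are known to bind the E-box CACGTG and to act on many genes of nucleotide synthesis.

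To show the genes at the level of sequence, the promoters of the enzymes were searched for CACGTG, which reads the same on both strands. RefSeq promoters of GRCm38.p6, from 250 bases before to 50 after each gene start, were matched by symbol for 31 of the 35 genes. The motif lay in 6 of these 31 genes (19.4%), against 8.09% of all 27025 genes in that promoter set. The 6 genes belong to purine synthesis (3 of 10 matched) and dNTP supply (3 of 9), and no match was found in the windows of the 6 pyrimidine synthesis or 5 breakdown genes. The 30 bases around each match are shown because they carry the motif in the genes whose levels follow. They are written 5′ to 3′ on the strand of the gene with the motif in capitals:
Atic: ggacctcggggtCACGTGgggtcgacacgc
Impdh2: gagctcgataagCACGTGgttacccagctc
Paics: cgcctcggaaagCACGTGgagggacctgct
Tyms: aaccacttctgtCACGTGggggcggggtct
Dtymk: gtctcgaacttcCACGTGaccagagcctgc
Nme1, upstream start: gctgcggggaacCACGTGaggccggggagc
Nme1, downstream start: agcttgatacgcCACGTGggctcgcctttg

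The windows lie at chr1:71557137-71557166 on the plus strand (Atic), chr9:108560314-108560343 on the plus strand (Impdh2), chr5:76951087-76951116 on the plus strand (Paics), chr5:30073669-30073698 on the minus strand (Tyms) and chr1:93802065-93802094 on the minus strand (Dtymk). The Nme1 windows are chr11:93968273-93968302 and chr11:93968037-93968066 on the minus strand. The motif began 7 bases before the gene start in Atic, 18 and 29 before the Nme1 starts, 61 in Tyms, 110 in Impdh2, 148 in Dtymk and 203 in Paics. Of these 6 genes, Atic, Impdh2, Tyms, Dtymk and Nme1 rose in c-MYC tumours and Paics did not, as given below. Impdh1, Ctps and Rrm2, which had larger fold changes than any of the 6, had no match in their windows. A match is a description of the sequence and does not show binding.

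In c-MYC tumours, synthesis genes rose and breakdown genes fell against NL. Of the 34 enzymes tested, 20 rose and 8 fell, beside 24.5% and 23.6% of all genes tested (22.5% and 22.3% of 16697 genes with no filter). The share of enzymes that rose was above that of all genes, whereas the share that fell was close to that of all genes. All 20 that rose belong to synthesis or dNTP supply, and the 8 that fell are the 7 breakdown enzymes and Cmpk1. The median log2 fold change was 1.98 for purine synthesis, 3.13 for pyrimidine synthesis, 1.91 for dNTP supply and -5.08 for breakdown, against 0.08 for all genes. Between both kinds of tumour few synthesis genes differed. With FOXO1AAA, 5 of the 34 enzymes were higher and 4 lower than in c-MYC tumours, shares close to the 15.9% and 12.7% of all genes. Those 9 were Prps2, Gmpr, Xdh, Uox and Dpys on the higher side and Umps, Ctps2, Dpyd and Upb1 on the lower side. Scaling the libraries to an equal median gave 4 higher and 5 lower, since Prps2 was no longer called and Dhodh was.

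**Figure D1:**
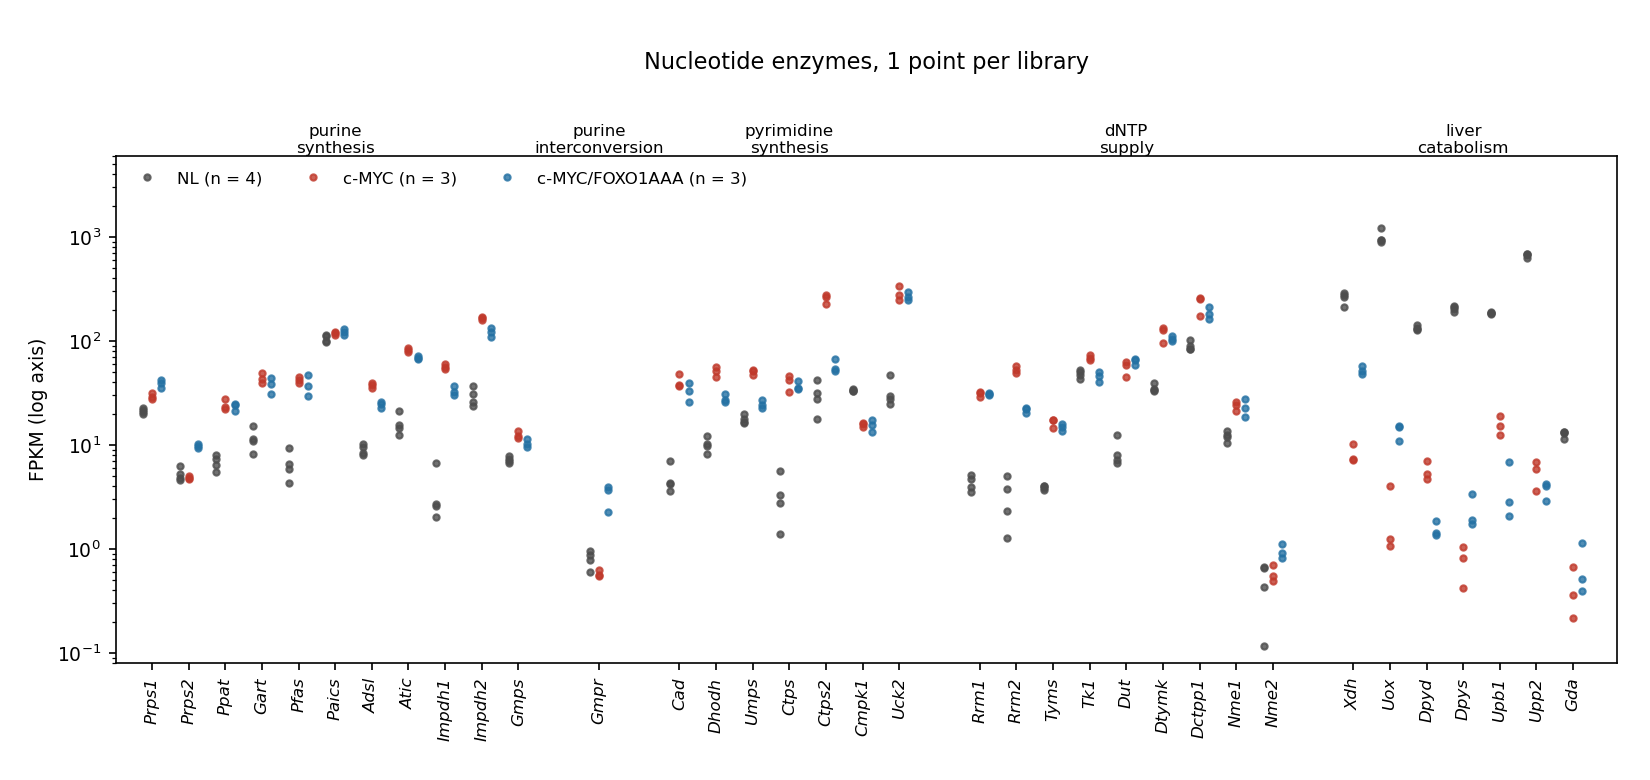
FPKM (log axis) of the 35 enzymes in the 10 libraries, 1 point per library, with genes grouped by role along the x axis and groups by colour (NL n = 4, c-MYC n = 3, c-MYC/FOXO1AAA n = 3). In purine, pyrimidine and dNTP synthesis most tumour points lie above the NL points, and in liver catabolism every tumour point lies below them.

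Purine synthesis starts with PRPP, made by the synthetases Prps1 and Prps2. Neither differed from NL by the test in c-MYC tumours. Prps1 was at 20 to 22.5 FPKM in NL and 27.6 to 31.9 in c-MYC (log2 fold change 0.48, SE 0.10, limma adjusted p = 1.0). Prps2 was at 4.61 to 6.26 FPKM in NL and 4.75 to 5.03 in c-MYC, so the groups overlapped. Its log2 change was -0.10 (SE 0.13), and with an equal FPKM total per library it was 0.83, in neither case past the threshold.

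The next steps, which assemble the ring on PRPP, rose with 1 exception. Ppat, the amidotransferase that commits PRPP to purines, was at 8.06, 6.42, 5.54 and 7.25 FPKM in the 4 NL libraries and 23.2, 27.6 and 22.3 in c-MYC, a 3.59-fold rise (limma adjusted p = 1.06e-05). Gart, which carries out several of the early steps, rose 3.93-fold from 11.4 ± 2.92 to 44.0 ± 5.09 FPKM (mean ± SD). Pfas, the synthase that follows, rose 6.73-fold. Adsl and Atic, which act later and end at IMP, rose 4.19-fold and 5.21-fold. For all 5 genes the c-MYC libraries lay above all NL libraries. Paics, which acts between Pfas and Adsl, was already at 98.5 to 114 FPKM in NL and at 114 to 121 in c-MYC tumours. Its log2 change was 0.16 (SE 0.09, limma adjusted p = 1.0), and it became a call with an equal FPKM total per library. Paics and Ppat face each other on chromosome 5 and share 272 exon bases on opposite strands, and whether reads were counted by strand is not given in the sources used here.

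The branch from IMP to GMP held the largest change among the 11 purine synthesis genes. Impdh1, an isoform of the IMP dehydrogenase that limits GMP synthesis, was at 6.77, 2.05, 2.70 and 2.56 FPKM in NL and at 53.8, 56.4 and 60.6 in c-MYC tumours. All c-MYC libraries were far above NL, the highest NL value being that of NL 1 (log2 fold change 4.18, SE 0.33, 18.2-fold, limma adjusted p = 3.81e-06). Impdh2, the isoform typical of dividing cells, rose 5.64-fold from 29.4 ± 5.76 to 164 ± 5.52 FPKM. Gmps, which completes GMP, was at 6.65 to 7.89 FPKM in NL and 11.6 to 13.6 in c-MYC, without overlap, but did not pass the test against a 1.5-fold change (log2 fold change 0.79, SE 0.11, limma adjusted p = 0.0969). It passed when no fold threshold was set. Thus 7 of the 11 purine synthesis genes rose and 0 fell (limma, also 0 lower at an unadjusted p under 0.05).

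With FOXO1AAA, 1 purine synthesis gene differed from c-MYC tumours. Prps2 was at 9.84, 10.2 and 9.32 FPKM against 5.03, 4.75 and 4.81, without overlap (log2 fold change 1.01, SE 0.14, limma adjusted p = 0.0212). That call was lost without c-MYC library 3 (adjusted p = 0.0504), c-MYC/FOXO1AAA library 1 (0.0638) or c-MYC/FOXO1AAA library 2 (0.0754), while the log2 change stayed between 0.98 and 1.01 in those 3 fits and the full one. The other 10 genes had log2 changes from -0.79 (Impdh1, SE 0.35) to 0.39 (Prps1, SE 0.10). Their median with Prps2 was -0.23, against 0.03 for all genes. None of the 11 was lower by the test, also at an unadjusted p under 0.05, and 2 (Adsl and Impdh2) were lower when no fold threshold was set. Impdh1 was at 30.2 to 36.7 FPKM, below the c-MYC libraries and above the NL libraries (limma adjusted p = 0.661 against c-MYC).

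Gmpr, the reductase that returns GMP to IMP, followed another course from the synthesis genes that rose in c-MYC tumours. It was at 0.594 to 0.948 FPKM in NL and 0.545 to 0.626 in c-MYC, which rests on 8 to 16 reads per library. In c-MYC/FOXO1AAA tumours it was at 2.26, 3.93 and 3.72 FPKM, from 85 to 182 reads. All 3 values lay above the other 7 libraries (log2 fold change 2.48 against c-MYC, limma adjusted p = 0.000206 with no filter). On opposite strands Gmpr shares 375 exon bases (16.1%) with Atxn1, whose level moved the other way, from 1.98 to 2.59 FPKM in c-MYC to 0.665 to 1.19 with FOXO1AAA. Against NL the log2 change in c-MYC was -0.45 (SE 0.27), and 0.47 with an equal FPKM total, in neither case past the threshold.

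Of the 7 pyrimidine synthesis genes, 6 rose in c-MYC tumours, and their median change was the highest of the synthesis lists. Cad, the trifunctional protein that starts the ring, was at 7.0, 4.32, 4.20 and 3.60 FPKM in NL and 36.8, 48.2 and 37.5 in c-MYC. The groups did not overlap, and the rise was 8.76-fold (log2 fold change 3.13, SE 0.22, limma adjusted p = 1.95e-06). Dhodh, the mitochondrial dehydrogenase of the next stage, rose 5.11-fold from 10.1 ± 1.62 to 51.1 ± 5.55 FPKM. Umps, which closes the route to UMP, rose 2.87-fold from 17.6 ± 1.54 to 50.5 ± 2.79 FPKM. The CTP synthetases rose strongly. Ctps was at 5.67, 1.38, 3.30 and 2.76 FPKM in NL and 32.2, 45.8 and 42.1 in c-MYC (13.6-fold, log2 fold change 3.77, SE 0.37, limma adjusted p = 2.07e-05). Ctps2 rose 9.03-fold (log2 fold change 3.17, SE 0.24). Uck2, the kinase that salvages uridine and cytidine, rose 9.13-fold (log2 fold change 3.19, SE 0.20).

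Cmpk1, the kinase that takes UMP and CMP to their diphosphates, was the only synthesis gene that fell. It was at 34.8, 33.7, 33.3 and 32.7 FPKM in NL and 16.3, 14.8 and 15.9 in c-MYC tumours, with 15.4, 13.4 and 17.2 in c-MYC/FOXO1AAA tumours. Both tumour groups lay below all NL libraries, by a log2 change of -1.10 in c-MYC (SE 0.10, limma adjusted p = 0.000569) and of -1.14 with FOXO1AAA (SE 0.10, limma adjusted p = 0.000261). With an equal FPKM total per library these changes shrank to -0.18 and -0.04 and neither was called, so the fall depends on how the libraries are set to a common scale. That scaling moved the median of all genes in c-MYC against NL from 0.08 to 1.01, in c-MYC/FOXO1AAA against NL from 0.21 to 1.31 and between the tumours from 0.03 to 0.20. With it, 24 enzymes rose and 7 fell in c-MYC against NL, while of the 14017 genes tested 7061 rose and 1895 fell. Of all genes called in that comparison, 78.8% were then higher, against 51.0% as deposited. Of the enzymes called, 77.4% were then higher, against 71.4% as deposited.

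With FOXO1AAA, 2 pyrimidine genes were lower than in c-MYC tumours. Ctps2, on the X chromosome at chrX:162901238-163032508, was at 41.9, 17.8, 31.3 and 27.5 FPKM in NL, 265, 277 and 227 in c-MYC, and 53.2, 51.2 and 66.4 in c-MYC/FOXO1AAA. Tumours with FOXO1AAA lay between the other groups without overlap, 4.52-fold lower than c-MYC (log2 fold change -2.18, SE 0.26, limma adjusted p = 0.000323). Against NL they were 2.0-fold higher, which did not pass the test (limma adjusted p = 0.0933), although it did without NL library 1 (adjusted p = 0.0136). Umps (chr16:33954782-33967038) was at 22.5, 26.8 and 24.4 FPKM with FOXO1AAA against 47.5, 51.2 and 53.0 without it. These groups did not overlap either (log2 fold change -1.04, SE 0.11, limma adjusted p = 0.00376), and against NL the log2 change of 0.48 did not pass the test. Dhodh was at 25.9 to 31.0 against 45.4 to 56.5 FPKM, also without overlap, and did not pass (log2 fold change -0.86, SE 0.15, limma adjusted p = 0.131). Cad, Ctps, Uck2 and Cmpk1 overlapped between the tumours, with log2 changes from -0.33 to -0.04. No pyrimidine gene was higher with FOXO1AAA by limma, nor at an unadjusted p under 0.05 or without a fold threshold.

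**Figure D2:**
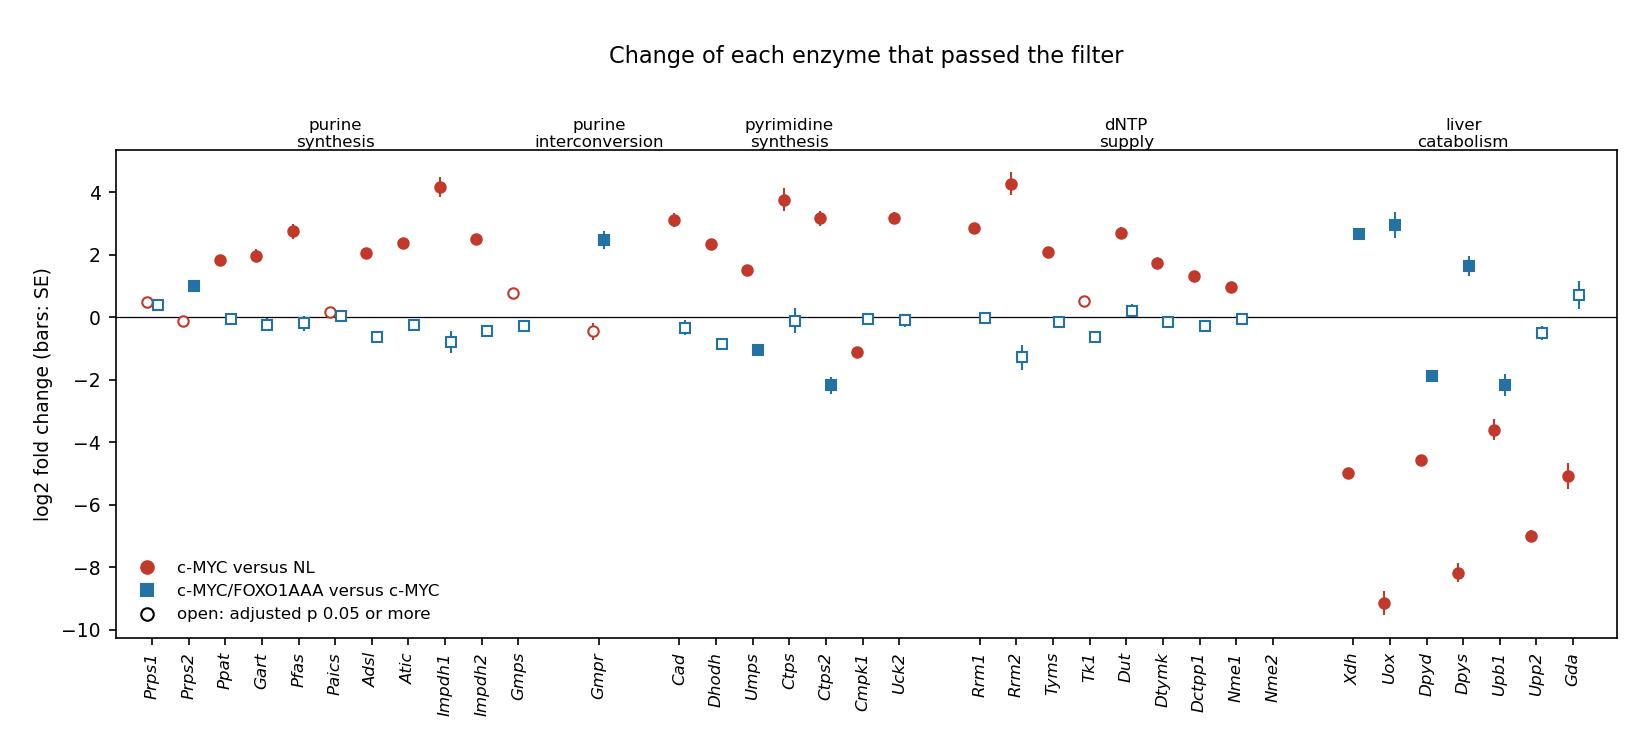
Log2 fold change (y axis, bars are SE) of the 34 enzymes that passed the filter, for c-MYC against NL (red circles) and c-MYC/FOXO1AAA against c-MYC (blue squares), with filled symbols for an adjusted p under 0.05. Red symbols are mostly filled, above 0 in synthesis and below 0 in catabolism, whereas the filled blue symbols are Prps2, Gmpr, Umps, Ctps2, Xdh, Uox, Dpyd, Dpys and Upb1.

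Of the 8 dNTP supply genes tested, 7 rose in c-MYC tumours and 0 fell (limma, also 0 lower at an unadjusted p under 0.05). Rrm2, the small subunit of ribonucleotide reductase whose level follows the cell cycle, changed the most. It was at 5.01, 1.26, 3.74 and 2.34 FPKM in NL and 49.3, 56.8 and 52.9 in c-MYC tumours, a 19.4-fold rise (log2 fold change 4.28, SE 0.37, limma adjusted p = 7.22e-06). Rrm1, the large subunit, rose 7.25-fold from 4.32 ± 0.723 to 31.0 ± 1.77 FPKM. For both subunits every c-MYC library lay above every NL library. Tyms, which makes dTMP from dUMP, rose 4.24-fold. Dut, which yields that dUMP and keeps uracil out of DNA, rose 6.55-fold. Dtymk, which phosphorylates dTMP, rose 3.33-fold. Dctpp1, a pyrophosphatase that hydrolyses dCTP, rose 2.50-fold from a high NL level of 90.2 ± 8.98 FPKM. Tk1, the thymidine kinase of salvage, stood apart from these genes in being at 42.9 to 52.9 FPKM in NL and 66.2 to 73.8 in c-MYC, without overlap, which did not pass the test (log2 fold change 0.53, SE 0.10, limma adjusted p = 0.942). Tk1 shares 83 exon bases (1.6%) with Afmid on the opposite strand, which was at 24.0 to 26.9 FPKM in NL and 1.29 to 2.20 in c-MYC.

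Nme1, a nucleoside diphosphate kinase that balances the triphosphates, was at 10.4 to 13.6 FPKM in NL and 21 to 25.6 in c-MYC (log2 fold change 0.97, SE 0.15, limma adjusted p = 0.0270). The call was lost without NL library 2 (adjusted p = 0.0686), NL library 4 (0.0502), c-MYC library 1 (0.0890) or c-MYC library 3 (0.0704). Its neighbour Nme2 had 0 to 25 reads per library and was not tested. Nme2 shares 573 exon bases (48.9%) on the same strand with Gm20390, an annotated gene model that also takes in 12.5% of the Nme1 exon bases, so the low Nme2 count is uncertain.

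No dNTP supply gene differed between the tumours (limma, also 0 in either direction at an unadjusted p under 0.05). The median log2 change was -0.16. Rrm2 came closest, at 20.5, 22.1 and 22.9 FPKM with FOXO1AAA against 49.3, 56.8 and 52.9 without, which did not overlap (log2 fold change -1.28, SE 0.40, limma adjusted p = 0.164). The 4 NL libraries entered this fit, and Rrm2 spread 1.26 to 5.01 FPKM among them. Without NL library 2 the adjusted p was 0.0257, and with the 2 tumour groups alone it was 0.000832, both at the same log2 change of -1.28. Rrm1 was at 29.1 to 32.6 FPKM in c-MYC and 29.9 to 31.3 with FOXO1AAA, and its log2 change was -0.01 (SE 0.14). Tk1 was at 40.7 to 49.8 FPKM with FOXO1AAA, below the c-MYC libraries and overlapping NL (log2 fold change -0.62, SE 0.11, limma adjusted p = 0.833 against c-MYC). When no fold threshold was set, Rrm2 and Tk1 were both lower.

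Proliferation moved with these rises. A list of 12 proliferation markers summed to 48.4 to 83.4 FPKM in NL, 600 to 665 in c-MYC and 530 to 625 in c-MYC/FOXO1AAA tumours. All 12 rose in each tumour against NL, with a median log2 change of 4.91 in c-MYC, and 0 differed between the tumours (limma, also 0 at an unadjusted p under 0.05, and 1 higher when no fold threshold was set). NL 1 was the highest NL library for all 12 of these markers and for 21 of the 27 synthesis and dNTP genes. Leaving NL 1 out gave the same counts of 20 enzymes higher and 8 lower in c-MYC. The part of proliferation in the synthesis results was not tested.

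The breakdown enzymes had the largest median change of the enzyme lists. Their summed level was 2340 to 2710 FPKM in NL, 34.8 to 42.6 in c-MYC and 75.2 to 82.2 in c-MYC/FOXO1AAA tumours. Xdh gave a mean of 8.26 FPKM to the mean sum of 38.2 in c-MYC, and 52.3 to that of 78.2 with FOXO1AAA. Its values rest on a short length, as given below. At the longest coding length its means were 1.11 and 7.01, so the difference of the sums between the tumours depends on that length. All 7 fell in each tumour against NL. The median log2 change was -5.08 in c-MYC and -6.20 in c-MYC/FOXO1AAA, against 0.08 and 0.21 for all genes. For the 10 hepatocyte markers it was -3.7 and -6.18, so a deep fall was not particular to these enzymes.

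On the purine side, Uox, the urate oxidase that turns uric acid toward allantoin, fell the most. Uox (chr3:146570426-146632305) was at 934, 1230, 899 and 943 FPKM in NL, 1.06, 1.25 and 4.04 in c-MYC and 10.8, 15 and 15.2 in c-MYC/FOXO1AAA. The 3 groups did not overlap. The level was 569-fold lower in c-MYC than in NL (log2 fold change -9.15, SE 0.39, limma adjusted p = 2.69e-08) and 7.73-fold higher with FOXO1AAA than without (log2 fold change 2.95, SE 0.41, limma adjusted p = 0.000632). Xdh, the xanthine dehydrogenase that makes uric acid, was at 292, 276, 214 and 263 FPKM in NL, 7.18, 7.34 and 10.3 in c-MYC and 57.8, 48.0 and 51.2 in c-MYC/FOXO1AAA. Its groups did not overlap either, with a log2 change of -4.99 (SE 0.15) in c-MYC against NL and 2.68 (SE 0.16, limma adjusted p = 1.58e-06) between the tumours. Gda, which deaminates guanine, was at 11.5 to 13.4 FPKM in NL, 0.217 to 0.674 in c-MYC and 0.396 to 1.15 with FOXO1AAA. Its log2 change in c-MYC was -5.08 (limma adjusted p = 2.34e-06 with no filter), and the tumours overlapped.

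On the pyrimidine side, 3 enzymes act in a row. Dpyd, the reductase that limits uracil and thymine breakdown, was at 127 to 141 FPKM in NL, at 4.68, 6.97 and 5.27 in c-MYC and at 1.35, 1.43 and 1.84 with FOXO1AAA. Dpys, which opens the reduced ring, was at 191 to 215 FPKM in NL, at 0.424, 1.04 and 0.821 in c-MYC and at 1.89, 3.35 and 1.74 with FOXO1AAA. Upb1, which releases the beta-amino acids, was at 180 to 189 FPKM in NL, at 15.3, 19.0 and 12.5 in c-MYC and at 2.09, 2.83 and 6.86 with FOXO1AAA. Each fell against NL in both tumours, and for each the 2 tumour groups did not overlap. With FOXO1AAA the first and last of the row were lower than in c-MYC, Dpyd by a log2 change of -1.87 (SE 0.16, limma adjusted p = 5.22e-05) and Upb1 by -2.16 (SE 0.35, limma adjusted p = 0.00296). Dpys, between them, was higher (log2 fold change 1.64, SE 0.32, limma adjusted p = 0.0154), from 17 to 46 reads per c-MYC library. That call was lost without c-MYC/FOXO1AAA library 2 (adjusted p = 0.0694), with the 2 tumour groups alone (0.0599) and with a pseudocount of 1 FPKM, where the log2 change was 0.90 (0.180). Upp2, the uridine phosphorylase of liver, was at 627 to 688 FPKM in NL and fell 128-fold in c-MYC. At 3.62 to 6.79 FPKM in c-MYC and 2.87 to 4.24 with FOXO1AAA, its tumour groups overlapped.

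The hepatocyte markers moved beside these genes. In c-MYC tumours the 10 markers stood at 0.117% (Tat) to 51.5% (Hnf4a) of their NL mean, with a median of 7.79%, and the breakdown enzymes at 0.211% (Uox) to 8.43% (Upb1), with a median of 3.16%. In c-MYC/FOXO1AAA tumours the markers lay closer together, at 0.552% to 3.92% with a median of 1.54%. There Uox was at 1.36%, Dpyd at 1.16%, Dpys at 1.13%, Upb1 at 2.12% and Upp2 at 0.558% of NL, all within the range of the markers. Xdh at 20% and Gda at 5.37% lay above that range. Between the tumours 7 markers were lower with FOXO1AAA, and 1 (Tat) was higher, as were Uox, Dpys and Xdh. The summed level of 8 stellate cell and fibroblast markers was 22.8 to 27.7 FPKM in NL, 12.7 to 36.4 in c-MYC and 154 to 214 in c-MYC/FOXO1AAA. Des (mean 62.7 FPKM) and Col3a1 (59.2) gave most of the c-MYC/FOXO1AAA sum. These markers did not move together. Against NL, 5 of the 8 were higher with FOXO1AAA, 2 did not differ by the test and 1 (Lrat) was lower, at 7.21% of its NL mean. The part of normal hepatocytes or stromal cells in the levels of the breakdown enzymes was not tested.

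**Figure D3:**
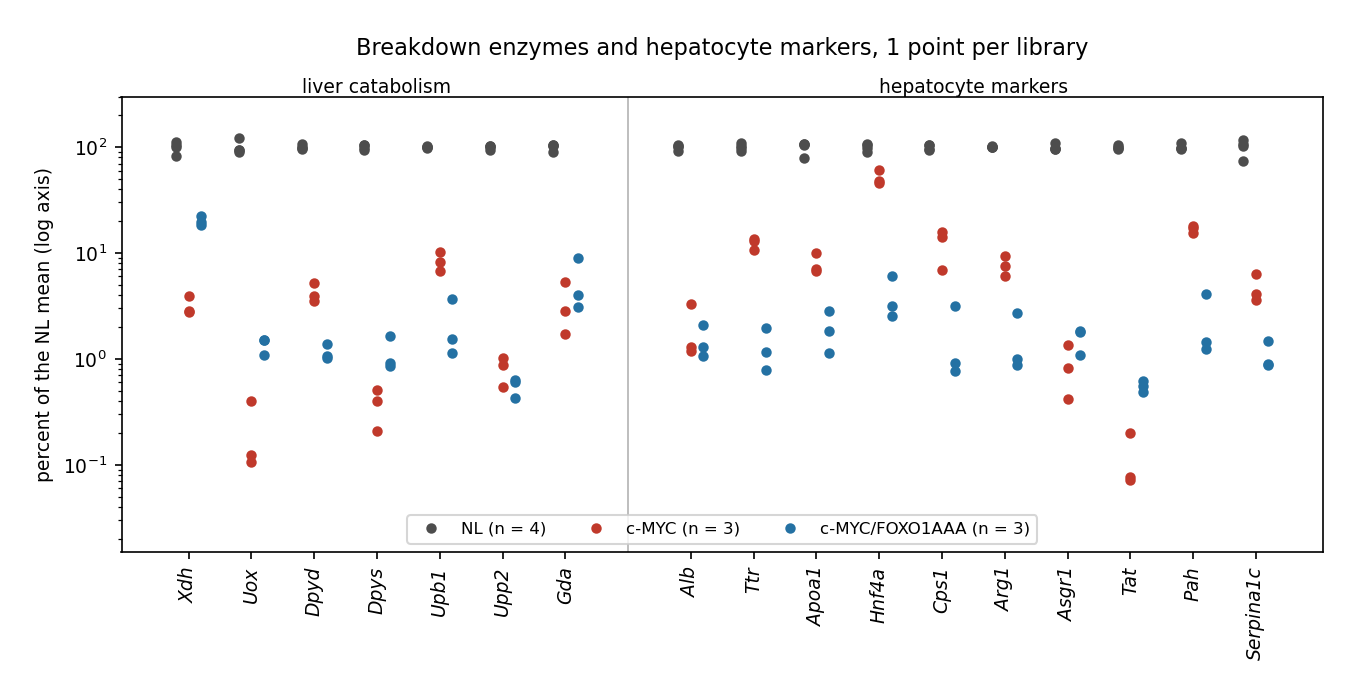
Level of each breakdown enzyme (left) and hepatocyte marker (right) as a percent of its NL mean (log axis), 1 point per library. In c-MYC/FOXO1AAA tumours Xdh has a mean of 20% and Gda of 5.37% of NL. The other breakdown enzymes there have means between 0.558% and 2.12%, within the 0.552% to 3.92% of the markers. In c-MYC tumours the means of all 7 enzymes, at 0.211% to 8.43%, lie within the 0.117% to 51.5% of the markers.

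Against NL, c-MYC/FOXO1AAA tumours showed 21 of the 34 enzymes higher and 8 lower, beside 31.2% and 26.6% of all genes. Here too only the share of enzymes that were higher was above that of all genes. This comparison shares the NL libraries with the c-MYC comparison and the c-MYC/FOXO1AAA libraries with the one between tumours. By role, 9 of 11 purine synthesis genes, 4 of 7 pyrimidine synthesis genes, 7 of 8 dNTP supply genes tested and Gmpr were higher. The median log2 change was 1.74 in purine, 1.49 in pyrimidine and 1.76 in dNTP synthesis. The 2 purine genes called here and not in c-MYC were Prps1 (log2 fold change 0.87, SE 0.10, limma adjusted p = 0.0129) and Prps2 (0.91, SE 0.13, limma adjusted p = 0.0256). The call of Prps1 was lost without c-MYC/FOXO1AAA library 2 (adjusted p = 0.0601), as was that of Dctpp1 (0.0593). Scaling the libraries to an equal median left 17 enzymes higher, since Prps1 (0.129), Prps2 (0.152), Dctpp1 (0.0538) and Nme1 (0.187) were then not called. The call of Prps2 was lost without NL library 1 (0.0552) or 4 (0.0669) or c-MYC/FOXO1AAA library 1 (0.0616) or 2 (0.0757). Nme1, at a log2 change of 0.90, lost its call without any of 7 libraries, NL 1, NL 2, NL 4, c-MYC 1, c-MYC 3 and c-MYC/FOXO1AAA 2 and 3, where the adjusted p was 0.0508 to 0.194. The pyrimidine genes that rose in c-MYC but were not called here were Umps and Ctps2.

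Several enzymes come as a pair of genes, and the balance within a pair was read in each library as a difference of log2 FPKM, as a description without a test. Impdh2 exceeded Impdh1 by 3.21 ± 0.52 (SD) in NL, 1.53 ± 0.11 in c-MYC and 1.87 ± 0.13 in c-MYC/FOXO1AAA, so that the tumour values lay below all NL values. Ctps2 exceeded Ctps by 3.28 ± 0.33 in NL, 2.69 ± 0.32 in c-MYC and 0.61 ± 0.31 in c-MYC/FOXO1AAA. Those last values, at 0.59, 0.32 and 0.93, were below all others in this pair. Prps1 exceeded Prps2 by 2.02 ± 0.25 in NL, 2.60 ± 0.11 in c-MYC and 1.98 ± 0.07 in c-MYC/FOXO1AAA, with the c-MYC libraries above the rest.

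**Figure D4:**
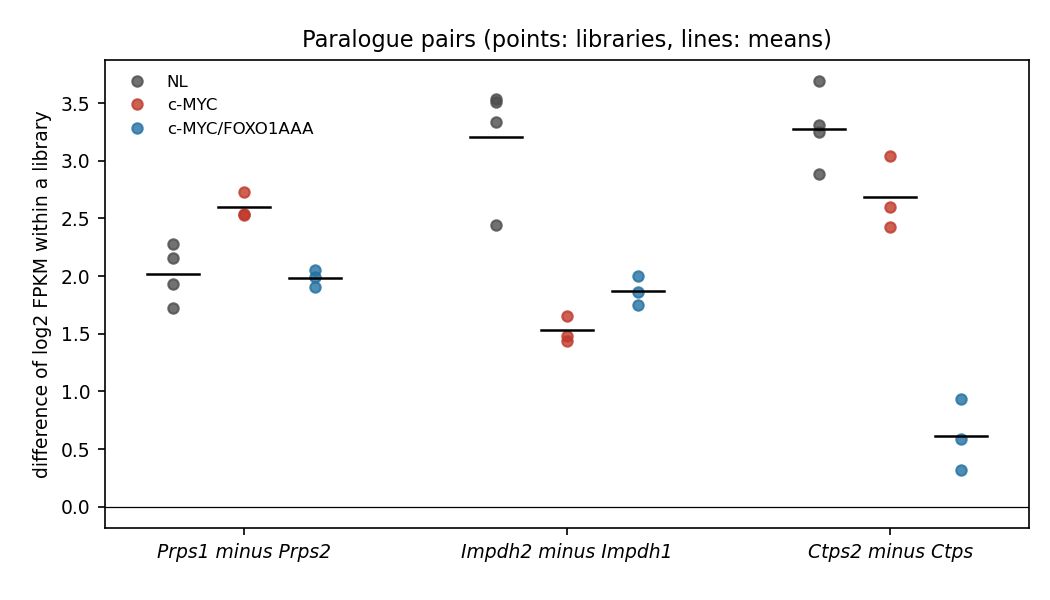
Difference of log2 FPKM within each library (y axis) for 3 paralogue pairs, with 1 point per library, lines for group means and colours for groups. Ctps2 minus Ctps lies between 0.32 and 0.93 in the c-MYC/FOXO1AAA libraries and above 2.4 in the other libraries, and Impdh2 minus Impdh1 is lower in both tumours than in NL.

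The level of some genes depends on the length the authors divided by. The deposited values imply that length, and for all 35 genes it equals that of an annotated GENCODE transcript. For 4 genes it is a transcript much shorter than the longest coding one. These are Uck2 (560 of 4731 bases, 11.8%), Xdh (616 of 4600, 13.4%), Ctps2 (592 of 3353, 17.7%) and Pfas (2129 of 6373, 33.4%). Dividing by the longest coding length instead gives Xdh a mean of 35 ± 4.5 FPKM in NL, Uck2 33.9 ± 5.10 in c-MYC, and Ctps2 45.3 ± 4.57 in c-MYC and 10.1 ± 1.46 in c-MYC/FOXO1AAA. On that scale Ctps2 exceeded Ctps by 0.78 in NL and 0.19 in c-MYC on the log2 scale, and stood at -1.89 in c-MYC/FOXO1AAA, below Ctps. Fold changes of a gene between groups do not depend on this length, whereas levels summed over genes do.

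Other genes of nucleotide metabolism were called in c-MYC tumours at shares close to those of all genes. Of 70 further pathway genes listed, 56 were tested, of which 12 rose (21.4%) and 14 fell (25%) in c-MYC against NL, beside 24.5% and 23.6% of all genes, with a median log2 change of 0.29. Among 22 genes of folate, salvage and other synthesis steps 6 rose and 6 fell, among 12 other nucleotide kinases 2 rose and 2 fell, and among 22 other genes of breakdown and dNTP removal 4 rose and 6 fell. The largest rises at 5 FPKM or more were those of Dctd, which deaminates dCMP toward dTMP (log2 fold change 4.52, SE 0.40), and of the mitochondrial folate enzymes Mthfd2 (4.27, SE 0.45) and Mthfd1l (3.57, SE 0.32). The largest falls were those of Urad, which acts after Uox (-6.81, SE 0.42), Tymp, the thymidine phosphorylase, which passed the filter through NL alone (-4.97, limma adjusted p = 1.51e-05 with no filter), and Agxt2, which handles the beta-amino acid made by the pyrimidine route (-4.03, SE 0.19).

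Between the tumours, 6 of these 56 genes (10.7%) were higher with FOXO1AAA and 8 (14.3%) lower, beside 15.9% and 12.7% of all genes. Ak1, an adenylate kinase best known from muscle, was at 8.80 to 11.5 FPKM with FOXO1AAA and 0.502 to 1.72 in c-MYC (log2 fold change 3.57, limma adjusted p = 0.000295 with no filter). It passed the filter through the c-MYC/FOXO1AAA libraries, with 1 other library above 1 FPKM. Samhd1, a phosphohydrolase that removes dNTPs, was at 67.5, 67.4 and 53.4 FPKM with FOXO1AAA, 13.1, 13.5 and 10.8 in c-MYC and 5.79 to 8.31 in NL. Its groups did not overlap (log2 fold change 2.33, SE 0.16, limma adjusted p = 6.5e-06). None of the tested enzymes that supply dNTPs passed the test between the tumours, as given above. Of these, Rrm2 and Tk1 were lower with FOXO1AAA without overlap, and the others overlapped. Nudt16, which hydrolyses inosine diphosphates, was also higher (2.22, SE 0.18). The largest falls were those of Urah, the enzyme directly after Uox (-2.01, SE 0.36), Mthfd1, the cytosolic folate enzyme that feeds purine synthesis (-1.78, SE 0.12), and Ak3, the mitochondrial GTP:AMP kinase (-1.57, SE 0.13). Mthfd1 was at 37.8 to 50.1 FPKM with FOXO1AAA, below the 137 to 164 of c-MYC and the 111 to 129 of NL. In c-MYC/FOXO1AAA against NL, 17 of the 56 (30.4%) rose and 15 (26.8%) fell, beside 31.2% and 26.6% of all genes, led by Ak1, Dctd and Nt5e, an ecto-nucleotidase (5.61, 5.5 and 5.37), and by Urad, Urah and Agxt2 (-5.97, -5.62 and -5.47).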

How the data were processed

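RNA from 10 mouse liver samples was sequenced by the authors after poly(A) capture or rRNA removal (the labels name both). Per the labels, FastQC 0.11.7 and GRCm38 were used, and the aligner and counter are not given in the sources used here. The deposited values are log2 FPKM, formed by the authors with edgeR from counts per gene with a library-scaled prior count of 2. Of 17069 entries, 372 without a symbol (2.18%) were left out. Whole reads and lengths were recovered from the values for 99.9% of genes. They served to describe depth, reads per gene and how levels depend on length, and entered no test. The libraries' effective sizes in the authors' scaling were 0.649 to 0.684 times their reads in NL and 1.256 to 1.502 times in tumours.

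The log2 values of all 10 libraries were fitted with limma 3.58.1 (R 4.3.3, statmod 1.5.0, treat with trend and robust settings, threshold 1.5-fold) after a filter of 1 FPKM in 3 libraries, with Benjamini-Hochberg adjustment over 14017 genes. The count model of the study was not used, since the deposited unit is log2. Folds are 2 to the power of the log2 change, so they compare geometric means. In simulated data 12687 genes were tested, of which 186 had been changed in c-MYC against NL, each by well over 1.5-fold. Of these 186, 163 were called, as was 1 unchanged gene. Smaller changes were not simulated, so the simulation cannot speak to calls near the threshold. Groups and replicate numbers came from the titles. Same-numbered libraries did not deviate together (correlations -0.04 to 0.027). Positions are those of GENCODE M21 (GRCm38). All 35 members were named, and other pathway genes by size of change (up to 3 in each direction, at 5 FPKM or more). The members and lists were chosen with earlier results of these data known. Alternatives changed the pseudocount, filter, scaling, fold threshold, replicate block, groups fitted and libraries.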

Additional observations from a re-analysis of the deposited data

Results flagged for a closer look

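For each of the 35 enzymes, the 4 NL libraries were checked for a library far from the other 3. Uox in NL 2 was the 1 value found, at 1230 FPKM where the other NL libraries were at 899 to 943. Its gap to the nearest of them was 0.846 of the group's range, past the critical value of Dixon's test, which chance passes in about 1 in 20 such groups.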

How the results depend on the processing

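Of the enzymes called, 26 of 28 in c-MYC against NL, 7 of 9 between the tumours and 24 of 29 in c-MYC/FOXO1AAA against NL were called under every alternative that tested them. Gmpr is counted among these in the last 2 comparisons, but only 14 of the 18 alternatives tested it. It failed the filter whenever a c-MYC/FOXO1AAA library was left out, and at a mean of 5 FPKM, so its call was not tried there. Between the tumours the number higher was 3 with a pseudocount of 1 FPKM and 2 to 5 with 1 library left out. It was 3, 2 and 4 without c-MYC/FOXO1AAA libraries 1, 2 and 3 in turn, where Gmpr was not tested. The number lower was 9 when no fold threshold was set. With a replicate block, 20 enzymes rose and 8 fell in c-MYC against NL, 5 were higher and 4 lower between the tumours, and 19 rose and 8 fell in c-MYC/FOXO1AAA against NL, where Prps2 and Nme1 were not called. The replicate numbers do not pair the libraries. With an equal FPKM total, small changes turned direction: Prps2 (0.83) and Gmpr (0.47) in c-MYC against NL, Tk1 in c-MYC/FOXO1AAA against NL (1.02, then called), and between the tumours Ppat (0.11), Ctps (0.07), Cmpk1 (0.13), Uck2 (0.08), Rrm1 (0.16), Tyms (0.01), Dtymk (0.02) and Nme1 (0.11). With an equal median Paics turned to -0.03. With 1 library left out, the change between the tumours ranged from -0.12 to 0.03 for Ppat, where leaving out c-MYC/FOXO1AAA 3 gave 0.01, from -0.25 to 0.01 for Ctps, from -0.12 to 0.05 for Cmpk1, from -0.18 to 0.03 for Uck2, from -0.06 to 0.02 for Rrm1 and from -0.20 to 0.08 for Nme1. Of 1822 recomputed changes, 1741 kept direction and call, 25 gained a call, 36 lost it and 20 turned direction. The 1741 include changes that were not called in either fit. The filters, the fold threshold, fitting 2 groups and leaving out a library of the third group cannot alter the log2 change itself. For these settings the direction was bound to stay. Dpys and Gmpr rest on few reads in c-MYC, which limits their fold changes. The causes were not tested.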
